A study of Bos taurus with 8 samples.

Results

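The genes described here code for the proteins of the cytosolic ribosome. They were chosen by gene symbol, as RPL or RPS followed by a number with at most a short suffix, or as RPLP0, RPLP1, RPLP2 or RPSA, leaving out the RPS6K kinases. The rule found 67 of the 9155 genes with a probe set of their own, 42 with a large subunit symbol and 25 with a small subunit symbol. Each gene was read on its brightest probe set, a group of short probes for 1 transcript. Of the genes that the rule or the naming rule lists, RPLP1, RPS27A, RPL41, RPS4X, RPL10L, RPL22L1 and RPL39L were not analysed here. The tissue was lactating mammary gland, biopsied in 4 cattle (Bos taurus) of the Holstein breed. The biopsy labelled full was taken after 12 h of milk stasis and the one labelled empty at 0 h, with 1 of each per cow. Both groups share breed and tissue type, and no source used here gives the age or stage of lactation. The series asks what milk accumulation does to expression in the gland, so full was set against empty within each cow.

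A ribosome consists of a small subunit, which holds the mRNA and reads its codons, and a large subunit, which joins the amino acids and holds the tunnel through which the new chain leaves. Nearly every protein is present once per ribosome, so the cell makes them in balanced amounts, and surplus proteins are degraded. Their mRNAs are short and abundant and begin with a run of pyrimidines, the TOP motif, through which mTORC1 and the RNA-binding protein LARP1 govern how strongly they are translated. Control by that route acts on translation and need not change the mRNA level, which is what these arrays measured. The lactating gland is among the most active protein-secreting tissues, and milk proteins are made on these ribosomes.

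Precision here is limited by there being 8 arrays, and levels are log2 signals. The full arrays of cows 2 and 4 stood apart. Their median correlation with the other arrays was 0.969 and 0.975, while the remaining 6 arrays reached at least 0.986. The tissue label was checked against its markers: all 12 luminal secretory genes listed were measured, and their summed log2 level was 16.87 to 16.99 in full and 16.90 to 17.01 in empty gland. Markers of other cells were also present. The 9 myoepithelial genes summed to 13.70 to 14.72 in full and 13.81 to 14.17 in empty gland, and the 13 fibroblast genes to 14.47 to 15.69 and 14.56 to 15.12. The 12 myeloid genes summed to 11.93 to 12.73 and 12.12 to 12.23, with the full array of cow 4 highest for all 3 of these lists. Other lists had their lowest sum in the full array of cow 2. Endothelium was at 12.04 there against at least 12.30 elsewhere, T and natural killer cells at 11.88 against at least 12.33, and adipocytes at 13.00 against at least 13.08. Such a sum follows the brightest genes of its list. Among the 12 luminal genes, 1, 2, 0 and 3 differed by over 0.3 log2 either way in cows 1 to 4. Those shares were 8.33%, 16.7%, 0% and 25%, against 11.1%, 36.3%, 7.39% and 27.3% of all genes. The luminal keratin KRT8 changed by -0.72 in cow 1 and 1.21 in cow 4. From empty to full in cow 2, 6 of 8 endothelial genes were lower. In contrast, 10 of 15 T and natural killer genes were higher, and the adipocyte genes split into 3 higher and 3 lower. In bulk tissue, fewer cells of a type and less RNA per cell cannot be told apart, and every cell type expresses ribosomal proteins.

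No ribosomal protein gene passed the test of full against empty gland. Of the 67 genes, 30 had a higher and 37 a lower mean in full gland, and the median difference was -0.0051 log2, against -0.0036 over all 9155 genes. That median was -0.022 with each array centred on its median and 0.0040 after repeated quantile normalization, so its sign depended on the scaling. The mean differences ran from -0.17 for RPL28 to 0.11 for RPS19, and 61 of the 67 lay within 0.1 log2 of 0, as did 59.1% of all genes. By limma, blocked on cow and with Benjamini-Hochberg adjustment over 24016 probe sets, 0 members passed an adjusted p of 0.05 and the smallest adjusted p was 0.993. The background was 0% of the probe sets and 0% of the genes. At an unadjusted p under 0.05 there were 0 members, against 2.8% of all genes, and the smallest unadjusted p of a member was 0.141, for RPS28. Limma draws each variance towards a common value, which raises the standard error (SE) of members with little spread between cows. Its part in this count was not tested.

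The intervals give the range of differences on the array scale that the moderated fit allows, so their width is not set by the 4 cows alone. For RPSA the SD of the 4 within-cow differences was 0.011 and the SE 0.063, and for RPL28 they were 0.35 and 0.14. The 95% interval of the difference lay within a 1.5-fold change either way for all 67 members and within a 1.25-fold change for 62. Over all genes those shares were 87.9% and 49.9%, and over the 94 non-member genes with a mean level at or above the members' lower quartile of 12.44 (called bright non-members below) they were 96.8% and 71.3%. The members whose interval reached past 1.25-fold were RPL28, RPS9, RPL18, RPL7A and RPS28. The SD of the 4 within-cow differences had a median of 0.067 over the members, 0.12 over the 94 bright non-members and 0.20 over all genes. Array signals can be compressed near the top of their range, where most members lie, and whether this narrowed the intervals was not tested.

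**Figure D1:**
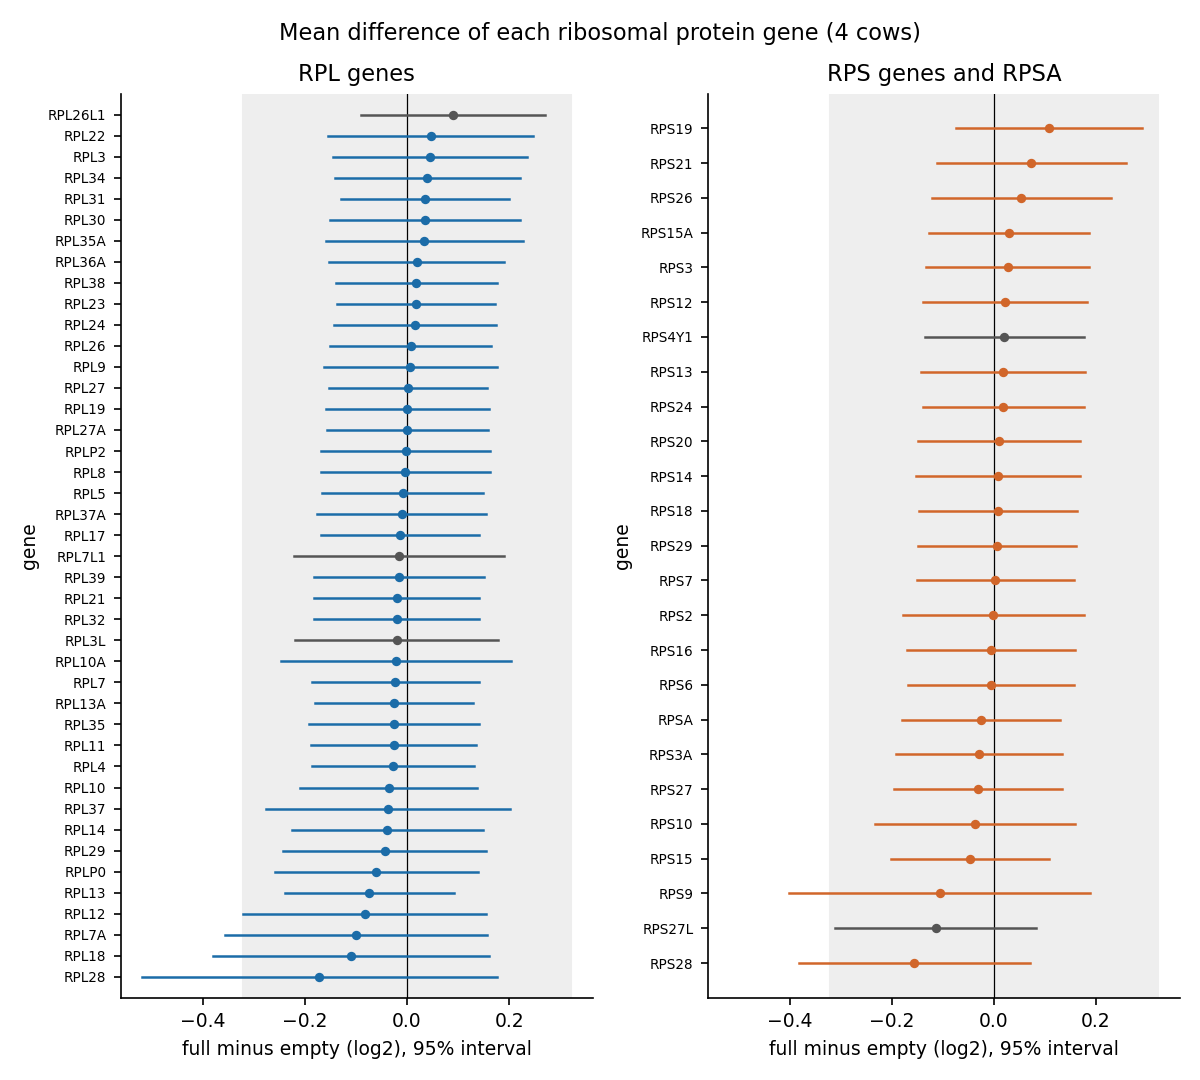
Mean full minus empty difference in log2 (horizontal axis) for each of the 67 genes (vertical axis), with limma's 95% interval over 4 cows. Large subunit genes are blue, small subunit genes orange and paralog members grey, the grey band marks a 1.25-fold change either way, every interval covers 0, and those of RPL28, RPS9, RPL18, RPL7A and RPS28 leave the band.

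Most ribosomal protein transcripts were among the brightest signals of every array. Of the 67 genes, 50 were above the 99th percentile of probe sets on all 8 arrays and 63 above the 90th. RPS19, RPL37 and RPL3L were below the median of at least 1 array. Across all 94 member probe sets, 53 to 56 were among the brightest 1% of an array, where they made up 22.1 to 23.3% of the 240 probe sets. RMA gives all arrays nearly the same distribution, so a shift shared by such a large share of the brightest probe sets could be partly removed, and its size was not tested.

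Small and large subunit genes both had a median close to 0. The 23 small subunit members, paralogs apart, had a median of 0.0055 log2, with 13 higher and 10 lower, and the 39 large subunit members a median of -0.014, with 15 higher and 24 lower. As deposited, full was higher than empty in all 4 cows for 2 members, against 3.59% of all genes, and lower in all 4 cows for 4 members, against 7.11% of all genes. The 2 were RPS19 and RPS4Y1, and the 4 were RPS28, RPS15, RPSA and RPL13A. There were 0 members with every full array above every empty array, against 0.35% of all genes, and 0 with every full array below, against 0.36%.

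Among the small subunit genes, RPS28 codes for a small protein near the path by which the mRNA leaves. Its log2 level was 10.61, 10.09, 10.59 and 10.30 in the full arrays of cows 1 to 4 and 10.62, 10.51, 10.63 and 10.47 in the empty ones. The full arrays of cows 2 and 4 were the lowest of the 8, and the groups overlapped. The mean difference was -0.16 ± 0.09 log2 with a limma adjusted p of 0.993. Errors after a mean difference are moderated SEs over the 4 cows.

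RPS9, which helps to keep decoding accurate, was at 11.63, 10.79, 11.29 and 11.37 in full and at 11.53, 11.24, 11.14 and 11.59 in empty gland. Cow 2 was lower by 0.45 in full gland and cow 4 by 0.22, cows 1 and 3 were higher, and the groups overlapped, with a mean difference of -0.11 ± 0.12. RPS21 was at 12.41, 12.52, 12.16 and 12.49 in full and 12.43, 12.29, 12.17 and 12.39 in empty gland. It differed by 0.07 ± 0.08, with its largest within-cow difference, 0.23, in cow 2, and RPS26, a contact of the mRNA upstream of the start codon, by 0.05 ± 0.07.

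RPS6, the substrate of S6 kinase and a standard readout of mTORC1 activity at the protein level, varied little. Its mRNA level was 13.86, 13.76, 13.79 and 13.86 in full gland and 13.85, 13.85, 13.77 and 13.82 in empty gland. The groups overlapped fully and the mean difference was -0.0060 ± 0.07, with a 95% interval of -0.17 to 0.16. RPS3, which lies where the mRNA enters and also takes part in DNA repair, differed by 0.03 ± 0.06. The array does not measure phosphorylation.

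RPS19, the gene most often mutated in Diamond-Blackfan anaemia, had the highest mean difference of the members, but on a dim signal. Its level was 6.28, 6.61, 6.43 and 6.40 in full gland and 6.22, 6.53, 6.16 and 6.37 in empty gland. Full was higher in every cow, by 0.06, 0.07, 0.27 and 0.03, yet the groups overlapped and the mean was 0.11 ± 0.07 (adjusted p = 0.993 in limma). This probe set ranked as low as percentile 30.1 of an array, and the second RPS19 probe set, dimmer still, differed by -0.021. RPL37 was also read on a dim probe set, at 6.73 to 7.17, and differed by -0.04 ± 0.10.

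Among the large subunit genes, RPL28 had the lowest mean difference and the widest spread between cows. Its level was 13.27, 12.52, 13.09 and 13.16 in full gland and 13.22, 13.20, 13.02 and 13.28 in empty gland. The full array of cow 2 was the lowest, the next being the empty array of cow 3, and the remaining 7 arrays overlapped. The mean difference was -0.17 ± 0.14, and without cow 2 it was -0.0012.

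RPL18, RPL7A and RPL12 had the same layout. RPL18 was at 13.66, 13.16, 13.54 and 13.64 in full and 13.65, 13.63, 13.46 and 13.69 in empty gland. RPL7A was at 13.23, 12.61, 13.01 and 12.98 in full and 13.17, 13.04, 12.94 and 13.08 in empty gland. RPL12, which sits at the base of the stalk that recruits elongation factors, was at 13.22, 12.70, 12.99 and 13.08 in full and 13.11, 13.07, 12.97 and 13.16 in empty gland. In each of them the full array of cow 2 was the lowest of the 8. Their mean differences were -0.11 ± 0.11, -0.10 ± 0.10 and -0.08 ± 0.10, and without cow 2 they were 0.013, 0.0090 and 0.012. RPL13 differed by -0.07 ± 0.07, the largest of its within-cow differences being -0.15 in cow 4.

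Other large subunit genes were highest in the full array of cow 2. RPL22, whose loss in mice blocks T cell development, was at 13.19, 13.42, 13.05 and 13.26 in full and 13.18, 13.17, 13.15 and 13.23 in empty gland, so that this array was the highest of the 8. RPL30 was at 13.41, 13.48, 13.24 and 13.40 in full and 13.41, 13.27, 13.30 and 13.41 in empty gland. RPL34 and RPL31, the latter at the exit of the peptide tunnel, were higher there by 0.20 and 0.13. The mean differences were 0.05 ± 0.08 for RPL22, 0.03 ± 0.08 for RPL30, 0.04 ± 0.07 for RPL34 and 0.04 ± 0.07 for RPL31, and none passed.

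None of the stalk, catalytic centre and exit tunnel genes named next passed the test. RPLP0, the core of the acidic stalk, was at 12.92, 13.17, 13.00 and 12.93 in full and 12.96, 13.04, 13.13 and 13.13 in empty gland, lower in 3 of the 4 cows with overlapping groups. The difference was -0.06 ± 0.08, with a 95% interval of -0.26 to 0.14. The further RPLP0 probe sets, at -0.020 and -0.15, were also lower in 3 of the 4 cows. The cow that was higher was cow 2 on the brightest probe set, cow 3 on the next and cow 1 on the dimmest. RPLP2, the stalk partner of RPLP0, differed by -0.0027 ± 0.07. RPL3 and RPL8, which reach towards the peptidyl transferase centre, differed by 0.04 ± 0.08 and -0.0038 ± 0.07, and RPL10, which the subunits need to join, by -0.04 ± 0.07. RPL26 and RPL39, both of the exit tunnel, differed by 0.0072 ± 0.06 and -0.02 ± 0.07.

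The proteins that bind the p53 regulator MDM2 when ribosome assembly fails did not pass the test either. RPL5 was at 13.38, 13.27, 13.12 and 13.37 in full and 13.38, 13.34, 13.11 and 13.35 in empty gland, where both arrays of cow 3 were the lowest. It differed by -0.0087 ± 0.06. Its partner RPL11 differed by -0.03 ± 0.07 and RPL23 by 0.02 ± 0.06. RPL13A, which can leave the ribosome to silence inflammatory mRNAs, was at 13.64 to 13.69 in full and 13.65 to 13.73 in empty gland and differed by -0.03 ± 0.06, lower in all 4 cows by at most 0.036.

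**Figure D2:**
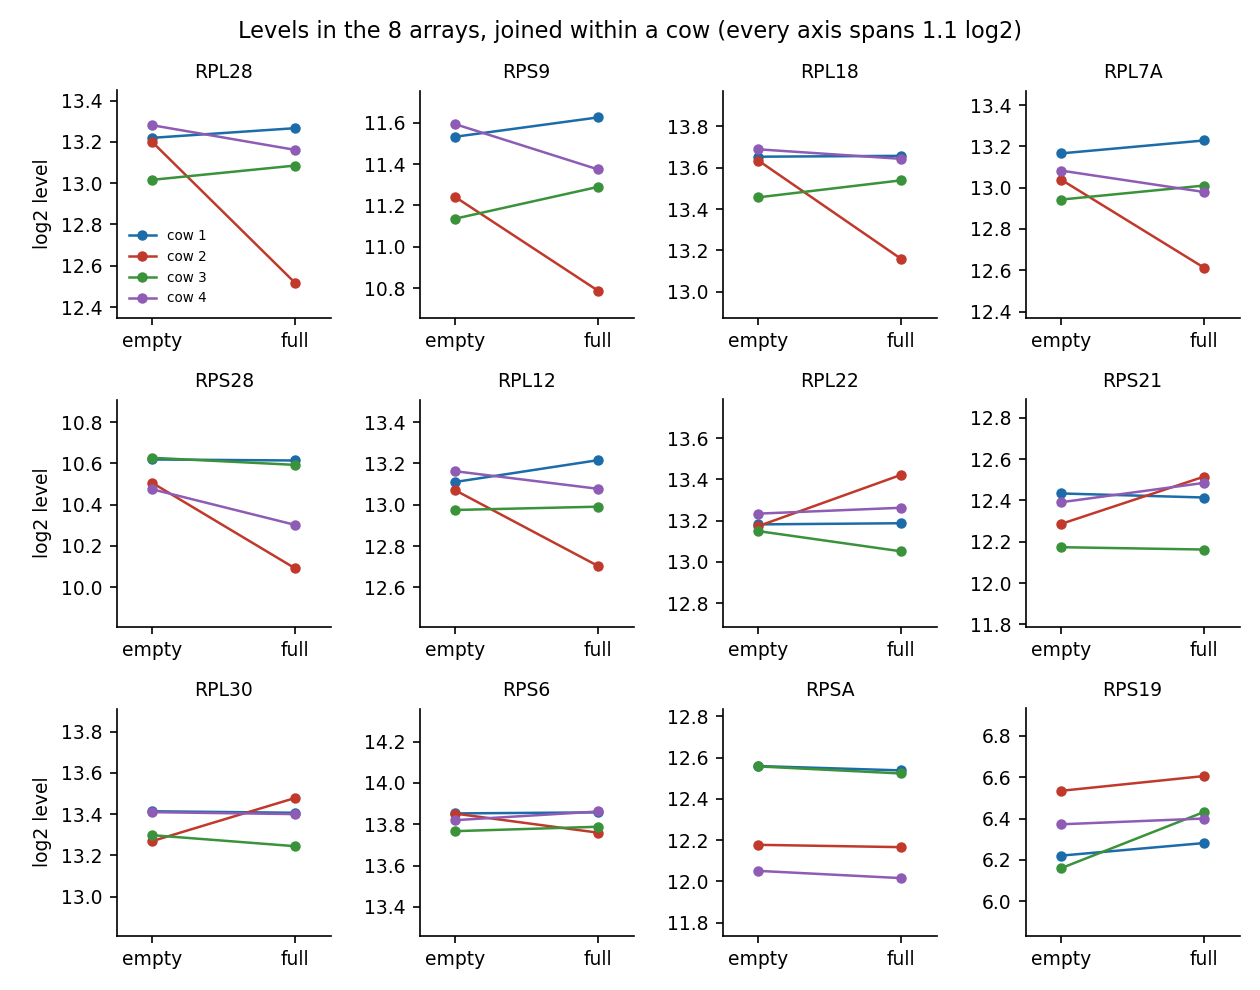
Log2 level (vertical axis, each panel spanning 1.1 log2) in empty and full gland for 12 genes, with 1 line per cow. The full array of cow 2 is the lowest point for RPL28, RPS9, RPL18, RPL7A, RPS28 and RPL12 and the highest for RPL22, RPS21 and RPL30, RPS6 is nearly level, RPSA is split by cow, and RPS19 is dim.

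Of the 67 members, 5 are variants or paralogs of another ribosomal protein. RPL26L1 was at 10.30, 9.81, 10.05 and 10.01 in full and 10.21, 9.87, 9.91 and 9.82 in empty gland. It was higher in 3 of the 4 cows, with overlapping groups and a mean of 0.09 ± 0.07, against 0.0072 for RPL26. RPS27L, a p53 target, was at 10.73, 10.45, 10.84 and 10.36 in full and 10.69, 10.67, 10.88 and 10.61 in empty gland, lower mainly in cows 2 and 4. Its difference was -0.11 ± 0.08, and that of RPS27 was -0.03 ± 0.07. The second, dimmer RPS27L probe set differed by -0.0014 and was higher in full gland in 3 of the 4 cows, cows 2 and 4 among them.

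RPS4Y1 differed by 0.02 ± 0.06, and the RefSeq genes of ARS-UCD2.0 place the bovine gene with this symbol on an autosome. Full was higher in cows 1 to 4 by only 0.0031, 0.061, 0.0055 and 0.011. The further probe sets of RPS4Y1 differed by -0.062, higher in 1 cow, and by 0.045, higher in 3. RPL7L1, a factor of large subunit assembly rather than a ribosomal protein proper, differed by -0.02 ± 0.08 and RPL7 by -0.02 ± 0.07. RPL3L, which replaces RPL3 in striated muscle, was dim at 5.82 to 6.08 and differed by -0.02 ± 0.08. The 9 skeletal muscle markers summed to 11.97 to 12.46 in full and 11.86 to 12.17 in empty gland.

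The within-cow differences were small in cows 1 and 3 and wider in cow 2. Over the 67 members the SD of the differences for cows 1 to 4 was 0.040, 0.18, 0.066 and 0.081, against 0.19, 0.40, 0.17 and 0.33 over all genes. A difference over 0.3 log2 either way was seen for 0, 6, 0 and 0 members, or 8.96% of them in cow 2, against 36.3% of all genes and 18.1% of the bright non-members there. Cow 2 held the largest of the 4 within-cow differences for 42 of the 67 members, or 62.7%, against 54.3% of the bright non-members and 43.9% of all genes.

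The 6 members past 0.3 in cow 2 were RPL28, RPL18, RPS9, RPL7A, RPS28 and RPL12, and all were lower in its full array. They were picked for their values in cow 2, so only the other cows add information. In cow 4 all 6 were lower too, by 0.05 to 0.22, while in cow 1 and in cow 3 5 of the 6 were higher, by at most 0.15. Among all 67 members 37 were lower in cow 4, and 46 and 42 were higher in cows 1 and 3. Those counts were 58, 47 and 54 over the 94 bright non-members and 4286, 3375 and 4060 over all 9155 genes. Over all genes the differences of cow 2 correlated at 0.46 with those of cow 4, and at -0.24 and -0.32 with those of cows 1 and 3. At a lower limit of 0.15 log2, 13 members were lower in the full array of cow 2 and 6 were higher, namely RPS21, RPL35A, RPL30, RPL34, RPS26 and RPL22. Bright genes outside the family were also lower there, with a median of -0.12 over the 94 bright non-members against -0.048 over the members and 0.029 over all genes.

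Control probe sets for the ends of transcripts moved with that array. The level at the start of the GAPDH transcript minus that at its tail was -3.31 log2 in the full array of cow 2, against -2.13 to -1.53 in the other 7. The same contrast for elongation factor 1 alpha was 0.75 there against 1.25 to 1.96. Within cows, the GAPDH contrast changed by 0.21, -1.53, 0.59 and 0.17 from empty to full in cows 1 to 4. The actin contrast instead stood apart in the full array of cow 4, at -1.36 against -0.067 to 0.067. The part of these in the values of the ribosomal protein genes was not tested. With the mean of the actin and GAPDH contrasts as a covariate, the median difference of the members was 0.0076. That covariate left out elongation factor 1 alpha. With it 0 members passed, as without it, so this count cannot show the part of the contrasts.

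**Figure D3:**
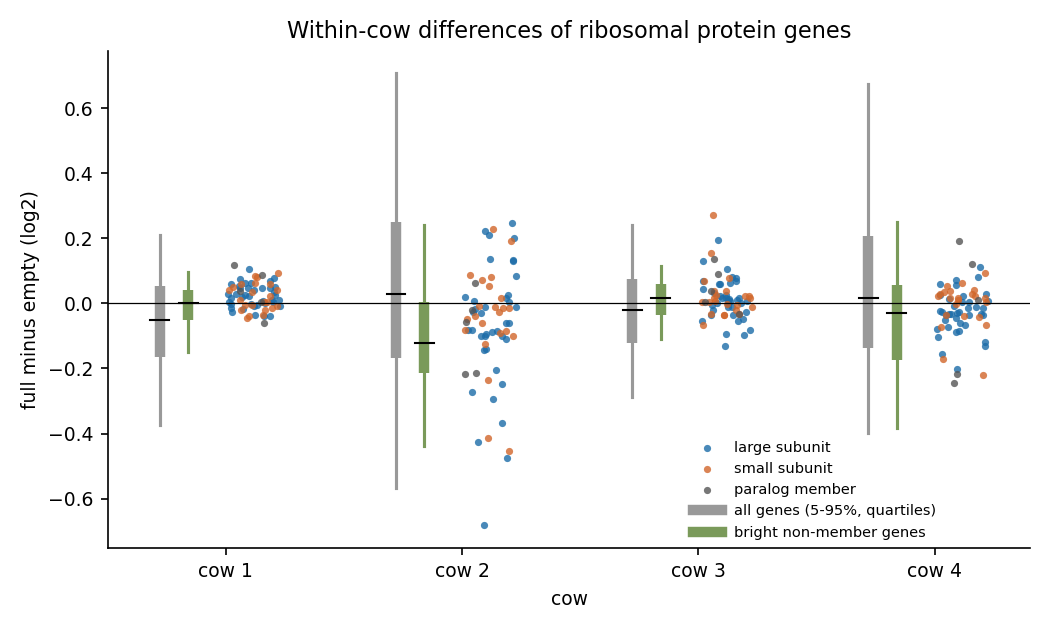
Full minus empty difference in log2 (vertical axis) for the 67 members in each cow (horizontal axis), 1 point per gene, blue for large subunit, orange for small subunit and grey for paralog members. Grey and green bars give the quartiles (thick), the 5 to 95% range (thin) and the median of all genes and of the 94 bright non-members, and the points are widest in cow 2, where RPL28 lies at -0.68.

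In cows 1 and 4 the scaling moved the size of the family's lean but not its direction, and in cows 2 and 3 it changed the sign of the median. As deposited, 46, 21, 42 and 30 of the 67 members were higher in full gland in cows 1 to 4, with medians of 0.022, -0.048, 0.011 and -0.013. With each array centred on its median, 67, 19, 24 and 2 members were higher, with medians of 0.096, -0.056, -0.012 and -0.13. After repeated quantile normalization the medians were 0.018, 0.0027, 0.0042 and -0.023. Median centring moved the median of all genes from -0.052 to 0.023 in cow 1 and from 0.017 to -0.096 in cow 4, so the size of the lean in those cows moved with the choice of zero.

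Between cows, RPSA differed most clearly among the members. RPSA is a small subunit protein that is also known as the laminin receptor. In cows 1 to 4 its level was 12.54, 12.17, 12.52 and 12.02 in full and 12.56, 12.18, 12.56 and 12.05 in empty gland. The arrays of cows 1 and 3 lay above those of cows 2 and 4 with no overlap, while the within-cow differences were -0.011 to -0.035. The limma F-test for differences among cows gave an unadjusted p of 0.00261 and an adjusted p of 0.145, so it did not pass. Since both arrays of a cow come from the same animal, this test compares these 4 animals.

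No member passed that test, against 0.481% of all genes. At an unadjusted p under 0.05 there were 2 members, RPSA and RPL26L1, against 16.9% of all genes and 9.57% of the bright non-members. The F-test uses the same moderated variance, whose part in this count was not tested. RPL26L1 had an unadjusted p of 0.0321 (limma F-test, adjusted p = 0.303) and was highest in cow 1 in both states. The next in order were RPS9, RPS27L, RPL5, RPS19, RPL34 and RPL8, with unadjusted p of 0.0543 to 0.113. The range of the 4 cow means had a median of 0.16 log2 over the members, 0.23 over the bright non-members and 0.31 over all genes.

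As deposited, the members tended to the same order of cows. Cow 3 had the lowest mean for 42 of the 67 members and cow 1 the highest for 40, where over all genes cow 3 was lowest for 31.8% and cow 1 highest for 31.9%. The bright non-members had another order, with cow 3 highest for 43 of 94. Among the empty arrays alone cow 3 was lowest for 54 members, and among the full arrays for 32. The shift was small, with median deviations from the mean of the 4 cows of 0.058, -0.011, -0.060 and 0.018 log2 in cows 1 to 4. It held after repeated quantile normalization, where cow 3 was lowest for 39 members and cow 1 highest for 32. With median centring it did not hold, since cow 3 was lowest for 21 members and cow 4 for 23. The arrays of cow 3 had the lowest medians over all probe sets, 7.11 and 7.08 against 7.13 to 7.24. Other members left the order seen as deposited, with cow 2 lowest for 17, cow 4 for 6 and cow 1 for 2. Among these were RPSA, RPS19, RPS28, RPS27L and RPLP0. RPSA and RPS28 in cow 3 were close to their levels in cow 1. On its brightest probe set RPLP0 was lowest in cow 1, at -0.093 from the mean of the 4 cows against 0.030 in cow 3. On its next brightest probe set cow 1 was instead the highest in both states, at 12.80 in full and 12.83 in empty gland.

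**Figure D4:**
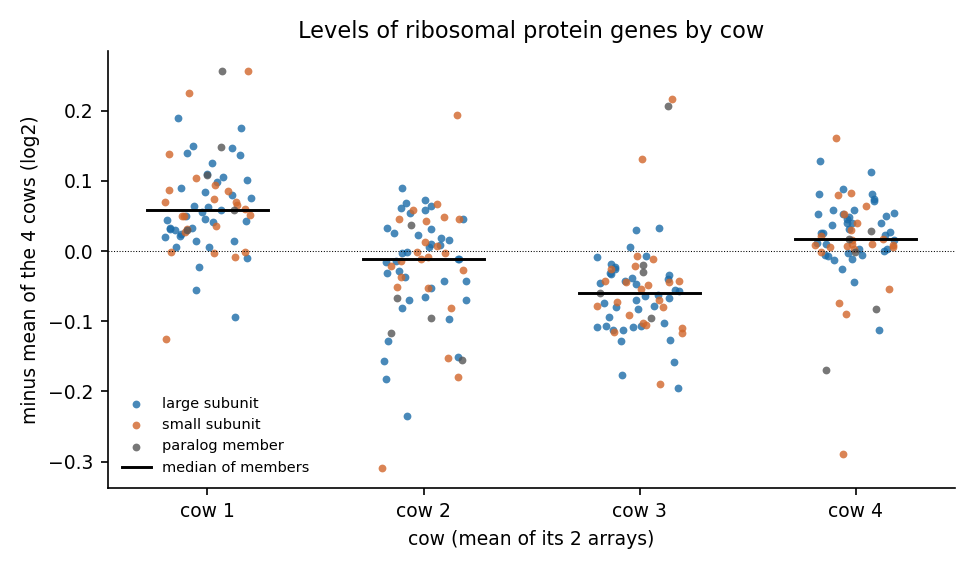
Mean of both arrays of a cow minus the mean of the 4 cows in log2 (vertical axis) for the 67 members, by cow (horizontal axis), with the median of the members as a black line, blue for large subunit, orange for small subunit and grey for paralog members. The medians are 0.058, -0.011, -0.060 and 0.018, and they change with the scaling.

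A gene's further probe sets were mostly dimmer and more variable. Of the 67 members, 18 had more than 1 probe set, with 27 further probe sets. For 13 of the 18 genes they included both signs and for 5 a single sign, as can be seen with differences this close to 0. The differences of the further probe sets ran from -0.18 to 0.14, and none lay more than 0.18 from that of the brightest. RPL9 had further probe sets at 0.11 and 0.11 log2 against 0.0066 for its brightest, and RPL10 had one at -0.13 against -0.04. The SD of the within-cow differences had a median of 0.19 over the further probe sets. None of the 94 probe sets passed. The brightest probe set of RPL10 and that of RPLP0 have ID endings that mark possible hybridisation to related transcripts. Ribosomal protein genes have many processed pseudogenes, and probe sets of the other members can also share signal with those.

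**Figure D5:**
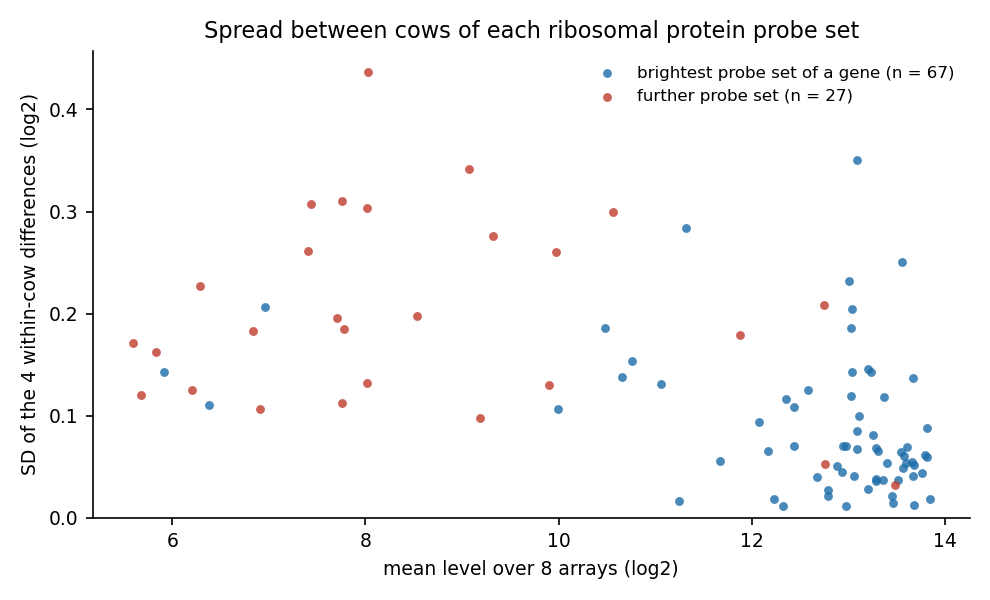
SD of the 4 within-cow differences in log2 (vertical axis) against the mean log2 level over 8 arrays (horizontal axis) for the 94 probe sets of the family, blue for the brightest of each gene and red for the further ones. The brightest have a median SD of 0.067 and the further ones of 0.19, and most of the brightest lie above 12 log2.

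Among the 124 measured genes of the lists of related genes (ribosome partners, other TOP mRNAs, assembly, polymerases I and III, and control), 0 passed the test in either direction (limma). An unadjusted p under 0.05 was found for 2 of them, NOP14 and MYC, or 1.61% against 2.8% of all genes, so such values were no more frequent here than in the background. FAU, the ubiquitin-like fusion that yields a small subunit protein, differed by -0.07 ± 0.08, and RACK1, a scaffold bound to the small subunit, by 0.0063 ± 0.06. Of 21 other genes with TOP mRNAs, 9 were higher and 12 lower, with a median of -0.011 log2. The histone chaperone NAP1L1 differed by 0.11, the translation factor subunits EIF3E and EEF1D by 0.05 and -0.16, and AHCY by -0.08.

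Ribosome biogenesis factors had a median of -0.036 log2 over 57 genes, 20 higher and 37 lower, and 5 were lower in all 4 cows, or 8.77% against 7.11% of all genes. As deposited, the cows differed in direction, with 52 of the 57 lower in cow 1 (median -0.15) and 38 higher in cow 4 (median 0.10). Over all 9155 genes, 5780 were lower in cow 1 and 4869 higher in cow 4, with medians of -0.052 and 0.017. With median centring those medians over all genes were 0.023 and -0.096. How far the counts of the 57 factors moved with that choice of zero was not tested. NOP14, which takes part in small subunit maturation, was lower in cows 1 to 4 by 0.31, 0.17, 0.33 and 0.17. Its mean was -0.24 ± 0.07 with an unadjusted p of 0.0141 and an adjusted p of 0.993 in limma. AAMP differed by -0.16, and KRR1 and NOLC1 by 0.13 and 0.13. Polymerase I and III genes had a median of -0.0044 over 17 genes, 8 higher and 9 lower, with POLR3F at 0.15, TAF1D at 0.11, POLR3K at -0.15 and POLR3D at -0.13.

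The list on control by mTORC1, S6 kinase and MYC had a median of -0.056 over its 27 measured genes, 9 higher and 18 lower. MTOR and LARP1 themselves were not analysed here. MYC, a transcription factor that raises ribosome production, was at a mean of 9.61 in full and 9.19 in empty gland, and the within-cow differences were 0.17, 0.65, 0.01 and 0.85. The larger differences were those of cows 2 and 4, and the mean of 0.42 ± 0.15 had an unadjusted p of 0.0356 and an adjusted p of 0.993 in limma. AKT1S1, an inhibitory subunit of mTORC1, was lower in all 4 cows with a mean of -0.33 ± 0.14, with cow 2 at -0.78 and cow 4 at -0.40. RPS6KA3 differed by -0.21 and AUH by 0.16.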

How the data were processed

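Expression was measured in 8 biopsies from 4 cows on single-colour bovine Affymetrix arrays. Per the labels' protocols, cRNA was made from total RNA with an oligo(dT) primer. The deposited values are on a log2 scale, 1 for each probe set on each array. The submitters' processing notes name RMA, without a version. Of 24128 probe sets, 112 platform controls were left out and 24016 tested. In the platform annotation 13292 had 1 symbol, 86 several and 10638 none; the 67 members all matched RefSeq genes (ARS-UCD2.0) by entrez number.

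The fit was limma 3.58.1 in R 4.3.3 with state and cow as terms (3 residual and 2.81 prior degrees of freedom), two-sided, with Benjamini-Hochberg adjustment and a threshold of 0.05. Cow was a block because the labels name a full and an empty sample of each cow. Deviations from the group means correlated within cows at 0.46, 0.32, 0.60 and 0.53 and at most at -0.031 between cows. Such deviations cancel over the cows of a group, so positive values within cows push those between cows down, and the contrast is partly built in. Figures used matplotlib 3.10.9 in Python 3.11.15. The fit was tested on simulated data.

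The members and lists were chosen with earlier results of these data known. Named were the members with the 8 smallest p in each direction and between cows, the 6 with the widest spread, members fixed by role, paralogs with their partners, members whose probe sets disagree by over 0.3 log2 (0 found) and up to 2 genes per direction of each related list. Outside this rule, RPL9, RPL30, RPL35, RPL35A, RPL38, RPS15, RPS16 and the control probe sets were singled out with their values in view. Alternatives covered the block, scaling, dim probe sets, left-out cows, the prior, array weights, transcript-end controls, thresholds, gene summary, probe set type and membership.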

Additional observations from a re-analysis of the deposited data

Results flagged for a closer look

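In each group of 4 values, the full levels, empty levels and within-cow differences of the 67 members and of their medians, a value was picked out when its gap to the nearest of the others divided by the group's whole range was over Dixon's 95% critical value. This met 10 of 204 groups, or 4.90%, and chance alone gives about 5%. Cow 3 was low among the empty arrays for RPL3 (12.42 against 12.60 to 12.63), RPS4Y1 (12.69 against 12.80 to 12.82), RPL5 (13.11 against 13.34 to 13.38) and RPL7 (13.755 against 13.82). Among the full arrays cow 3 was low for RPL38 (13.17 against 13.33 to 13.35), and cow 1 was high for RPL35 (13.09 against 12.90 to 12.93). RPL35A was high in the empty array of cow 4 (11.15 against 10.99 to 11.01). The within-cow difference of cow 2 stood apart for RPL31 (0.13 against -0.0030 to 0.0086), RPS16 (-0.10 against 0.018 to 0.040) and RPS4Y1 (0.061 against 0.0031 to 0.011).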

How the results depend on the processing

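The count of ribosomal protein genes passing was 0 between states and 0 between cows under each alternative run, and the count of all probe sets passing between states was 0 as well. Without the replicate block the smallest adjusted p over all probe sets in limma was 1.00, and that block changed no other call. The median difference of the members stayed between -0.022 (median centring) and 0.013 (without cows 2 and 4). The 3 members on dim probe sets gave no value among the brighter probe sets. Of 35 named members, 24 turned sign under at least 1 alternative, and the smallest adjusted p of a named member was 0.668. Without cows 2 and 4, 23 turned: RPL10 at 0.036, RPL11 at 0.011, RPL12 at 0.061, RPL18 at 0.043, RPL22 at -0.046, RPL26 at -0.022, RPL28 at 0.058, RPL31 at -9.2e-04, RPL34 at -0.0021, RPL37 at 0.13, RPL39 at 0.041, RPL3L at 0.078, RPL5 at 0.0062, RPL7 at 0.030, RPL7A at 0.065, RPL7L1 at 0.015, RPL8 at 0.031, RPLP2 at 0.052, RPS21 at -0.015, RPS26 at -0.0026, RPS27L at 0.0020, RPS6 at 0.013 and RPS9 at 0.12. With the transcript-end covariate 14 turned: RPL10 at 0.0043, RPL12 at 6.1e-04, RPL22 at -0.012, RPL26 at -0.0069, RPL37 at 0.060, RPL39 at 0.015, RPL3L at 0.027, RPL5 at 0.0017, RPL7 at 0.0064, RPL7L1 at 0.012, RPL8 at 0.017, RPLP2 at 0.029, RPS6 at 0.0080 and RPS9 at 0.027. With array weights 12 turned: RPL22 at -0.015, RPL26 at -0.0021, RPL37 at 0.059, RPL39 at 0.0073, RPL3L at 0.012, RPL5 at 0.0027, RPL7 at 0.0032, RPL7L1 at 0.024, RPL8 at 0.012, RPLP2 at 0.027, RPS6 at 0.0093 and RPS9 at 0.017. With all probe sets of a gene averaged, RPL26 was at -0.017, RPL7 at 0.013 and RPS3 at -0.0034. Median centring turned RPL26 (-0.010), and repeated quantile normalization RPL39 (0.0085), RPL5 (0.012), RPL7L1 (0.0045), RPL8 (0.030) and RPLP2 (0.015). Leaving out 1 cow at a time, without cow 2 in 13 cases and without cow 4 in 3, the ranges that crossed 0 were -0.15 to 0.012 for RPL12, -0.17 to 0.013 for RPL18, -0.021 to 0.094 for RPL22, -0.014 to 0.066 for RPL34, -0.11 to 0.041 for RPL37, -0.044 to 0.0077 for RPL39, -0.017 to 0.0087 for RPL5, -0.16 to 0.0090 for RPL7A, -0.061 to 0.050 for RPL7L1, -0.025 to 0.028 for RPL8, -0.024 to 0.024 for RPLP2, -0.022 to 0.023 for RPS6, -0.19 to 0.0095 for RPS9, -0.0088 to 0.023 for RPL26 and -0.067 to 0.045 for RPL3L. Apart from fewer arrays in these fits, the cause was not tested.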
